A study of Mus musculus with 20 samples.

Results

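Gene expression in oestrogen-deprived SSM3 mammary tumours was compared with that in tumours of hormone-intact mice, in animals that received no anti-PD-1 antibody. The comparison used 10 of the 20 libraries of the study, 5 labelled letrozole and 5 labelled vehicle, and the 19877 genes, out of 38996 named, with a normalised count of at least 10 in at least 5 of the 20 libraries. SSM3 is a mouse mammary carcinoma line that carries oestrogen receptor alpha. Cells of this single line were placed in a mammary gland of immunocompetent 129S6/SvEv mice aged 2 to 4 months (the strain label reads 129/SvEv), and the tumours were first grown to about 150 mm3. Letrozole mice were ovariectomised and then injected under the skin every day for 25 days with letrozole at 1 mg/kg, suspended in saline with 5% ethanol. Vehicle mice had sham surgery and 25 daily injections of the same ethanol saline. Surgery and drug always went together, so their effects cannot be told apart. The other 10 tumours came from mice that had the same 2 regimens and also 250 µg of anti-PD-1 on days 3, 5 and 7. They share no animal with the tumours described here and served as a further look at the same genes. Both sets of tumours were tested in 1 fit with a shared estimate of the spread, so their calls are not independent.

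Letrozole blocks aromatase, the enzyme that makes oestrogens from androgens, and ovariectomy removes the main source of these hormones. In luminal mammary cells oestradiol binds the receptor encoded by Esr1, which together with the factors Foxa1 and Gata3 switches on target genes, the progesterone receptor gene Pgr being the classical one. Oestrogen also drives proliferation of receptor-positive mammary tumours, and interferon-gamma and type I interferons raise antigen presentation genes.

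The libraries held 19102866 to 27987671 reads on the transcripts used here in the vehicle group and 23671965 to 29408257 in the letrozole group. Values are normalised counts, which are reads divided by a size factor for each library, on 1 transcript per gene. Each gene was tested with limma on log2(normalised count + 1) in a single fit of all 4 groups, and a gene was called where the Benjamini-Hochberg adjusted p over all 19877 genes fell below 0.05. The tumours are biological replicates by the design text, so the p-values measure the spread between tumours. These are bulk samples, in which fewer cells of a type and less RNA per cell cannot be told apart. Vehicle replicate 3 stood apart: on the first principal component, with 20.9% of the variance, it lay at 75.1, while the other 4 vehicle tumours lay between −104 and −18.0 and the letrozole tumours between −10.4 and 78.7. Its mean fibroblast and matrix level, over 26 genes, was 11.23 on the log2 scale against 6.07 to 9.26 in the other vehicle tumours. Among the anti-PD-1 libraries, replicate 1 stood apart on the second component, at −165 against −16.3 to 36.3 for all other tumours.

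The luminal identity of the tumours was read from a list of 20 epithelial genes, all of which passed the expression filter. The mean level of the list was 12.48, 12.40, 12.27, 12.31 and 12.48 in vehicle replicates 1 to 5 and 12.43, 12.59, 12.72, 12.53 and 12.49 in letrozole replicates 1 to 5. Epcam, an adhesion molecule of epithelial cells, stood at 19689, 20211, 16443, 20882 and 19049 normalised counts in vehicle tumours and at 25842, 25596, 30664, 25918 and 26188 in letrozole tumours (log2 0.48, SE 0.13, adjusted p = 0.0765). No member of the list was called in either direction by limma. At an unadjusted limma p under 0.05 there were 3 of 20, close to the 13.8% of all tested genes. edgeR called 0 as risen and 0 as fallen, and DESeq2 called 2 and 0, against 1.27% of all tested genes risen by DESeq2. Under quantile normalisation 2 rose.

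With letrozole, 189 genes were called, 0.951% of the genes tested, of which 109 fell (0.548%) and 80 rose (0.402%). The fallen genes included those of the progesterone receptor Pgr, the potassium channel subunit Kcne2, the hormone-like glycoprotein Stc2, tissue factor F3 and the interleukin-33 receptor Il1rl1. The risen genes included those of the transcription factors Foxj1, Irx3 and Irx5, the cytokine receptor Osmr, the kinase Hipk2 and some genes of the interferon response. Large changes were mostly decreases: 52 genes fell and 24 rose at least 2-fold, and 21 fell and 8 rose at least 4-fold. At an unadjusted p under 0.05 there were 2751 genes (13.8%), 1293 lower and 1458 higher. The values of the 2 groups did not overlap for 731 genes (3.68%), and 168 of the 189 called genes were among them. The median change over all tested genes was 0.03 on the log2 scale, with a median standard error of 0.24. edgeR on the recovered reads called 169 genes (0.85%; 61 risen, 0.307%, and 108 fallen, 0.543%) and DESeq2 624 (3.14%; 253 risen, 1.27%, and 371 fallen, 1.87%). Without vehicle replicate 3 the count rose to 807 (4.06%; 471 risen, 2.37%, and 336 fallen, 1.69%), and these included all 189. Leaving out vehicle replicate 1, 2, 4 or 5 lowered it to 86, 90, 117 or 85, and leaving out letrozole replicate 3, 4 or 5 to 91, 103 or 97. With each library centred on its median the split was 42 risen and 99 fallen. A total of 71 genes, 27 risen and 44 fallen, were called in each of the 10 analyses that left out 1 tumour of the 2 groups.

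**Figure D1:**
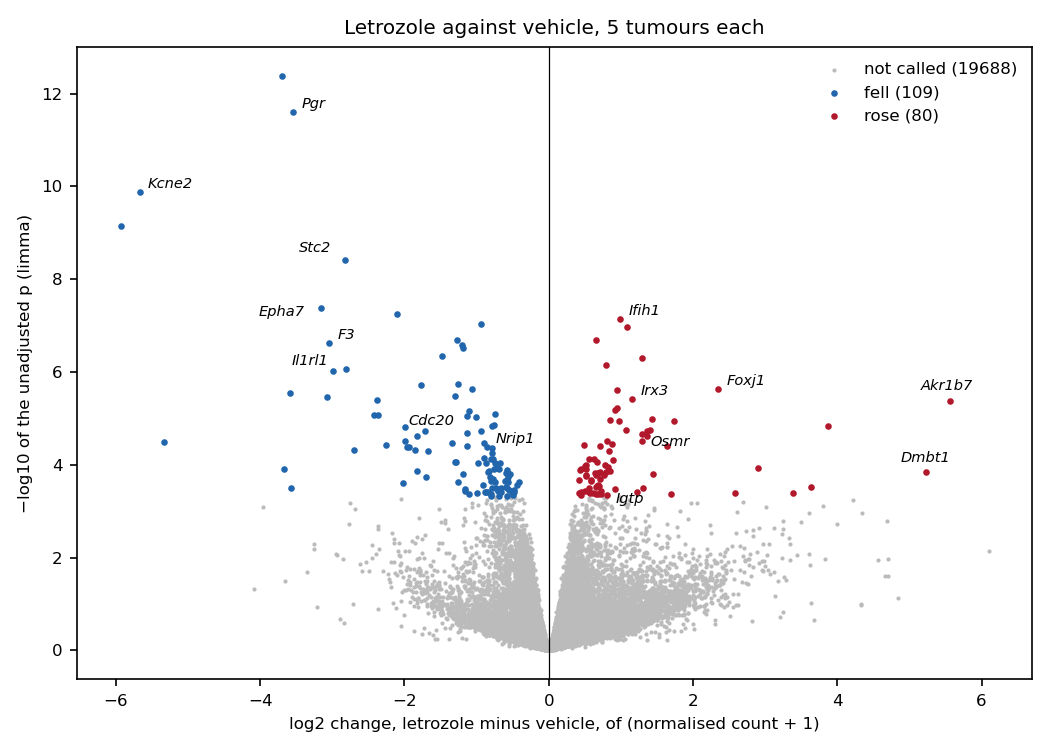
Each point is 1 of the 19877 tested genes, with its log2 change between 5 letrozole and 5 vehicle tumours on the x axis and −log10 of its unadjusted limma p on the y axis; 109 called genes that fell are blue, 80 that rose are red. Pgr and Kcne2 lie at the upper left, far above the risen genes, of which Ifih1 lies among the highest.

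The same genes were examined in the anti-PD-1 tumours. Of the 189 genes, 188 had a mean change of the same sign there and 90 were called there as well, which is 47.6% of the 189 and 42.3% of the 213 genes (1.07%) called in that arm, where 118 fell (0.594%) and 95 rose (0.478%). The share was alike for the 2 directions, with 52 of 109 fallen and 38 of 80 risen genes called in both arms. Among all tested genes, 69.6% had the same sign in the 2 arms. The arms shared 1 estimate of the spread, and with each arm's 2 groups fitted alone 42 genes were called in both. The median change of the fallen genes was −0.94 without antibody and −0.79 with it, and that of the risen genes 0.78 and 0.60. The exception in sign was Gprin3, named here after its values were seen, at 3.15 to 29.96 normalised counts in vehicle tumours and 38.3 to 146 in letrozole tumours (log2 2.90, SE 0.61, adjusted p = 0.0245) and with a change of −0.28 in the anti-PD-1 arm. Its call without antibody was lost in 8 of 31 alternatives, edgeR and 7 fits without 1 tumour (adjusted p up to 0.0773). No gene was called for a difference of the letrozole effect between arms by limma, where 393 genes (1.98%) had an unadjusted p under 0.05; edgeR called 0 such genes and DESeq2 4.

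**Figure D2:**
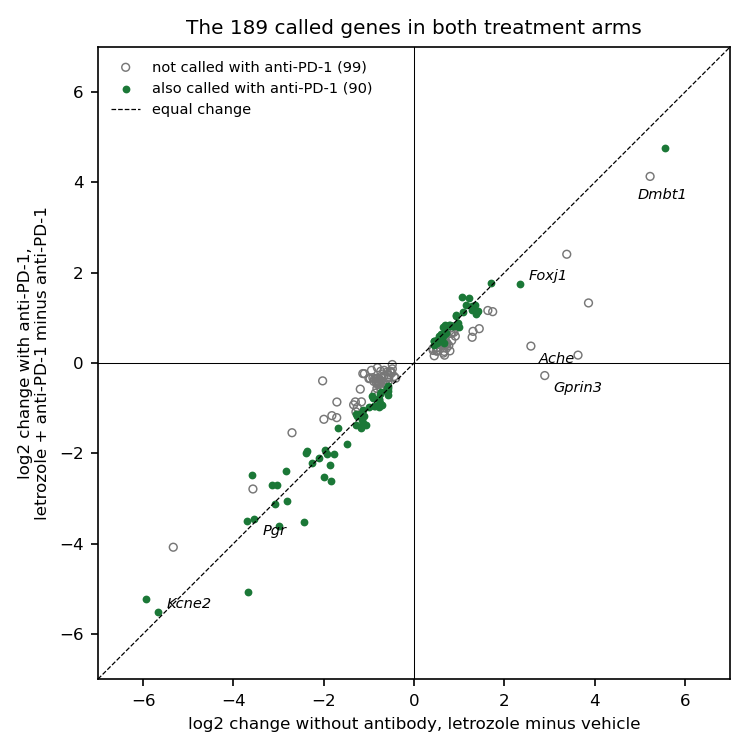
The 189 genes called without antibody are plotted by their log2 change without antibody (x axis) and with anti-PD-1 (y axis), each from 5 against 5 tumours; filled green points are the 90 genes also called with the antibody and the dashed line marks equal change. All points but Gprin3 lie at the lower left or the upper right.

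Hormone receptor genes and their partners were examined first. Pgr stood at 14153, 17673, 11568, 17101 and 17633 normalised counts in vehicle replicates 1 to 5 and at 805, 1327, 1351, 1725 and 1642 in letrozole replicates 1 to 5. The lowest vehicle value was several times the highest letrozole value, and the groups did not overlap. The fitted change was 11.6-fold lower (log2 −3.54, SE 0.24, adjusted p = 2.42e-08), and in the anti-PD-1 arm it was of similar size (log2 −3.44, adjusted p = 4.05e-08). Esr1, which encodes the receptor itself, stood at 6933, 4516, 5483, 6159 and 4319 in vehicle tumours and at 6437, 6014, 6217, 7407 and 6066 in letrozole tumours. These ranges overlapped, and the difference did not pass the test (log2 0.25, SE 0.14, adjusted p = 0.45; 95% interval −0.04 to 0.54). Gata3 had higher values in all 5 letrozole tumours (28491 to 37530.4) than in any vehicle tumour (19908 to 27468) but missed the threshold (log2 0.46, SE 0.12, adjusted p = 0.0623), and without vehicle replicate 3 it passed it (adjusted p = 0.0387). Foxa1, the pioneer factor of luminal cells, overlapped between groups (10238 to 11952 against 11063 to 14007; log2 0.13, SE 0.10, adjusted p = 0.583). The second oestrogen receptor gene Esr2, the aromatase gene Cyp19a1 and the oestrogen target Greb1 were below the expression filter, with at most 7.49, 0 and 3.74 normalised counts in any vehicle tumour and 1.73, 0 and 16.4 in any letrozole tumour.

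Nrip1, a corepressor of nuclear receptors and itself an oestrogen target, stood at 2212, 2429, 1859, 2230.4 and 3050.3 in vehicle tumours and 1229, 1292, 1163, 1281 and 1466 in letrozole tumours. Its groups did not overlap (log2 −0.86, SE 0.17, adjusted p = 0.0116), and the change in the anti-PD-1 arm was −0.67 (adjusted p = 0.0533). Stc2, which encodes the secreted glycoprotein stanniocalcin 2, stood at 7779.9, 9753, 3855, 7538 and 7083 in vehicle tumours and at 776, 1473, 663, 1084 and 1043 in letrozole tumours. Vehicle replicate 3 had the lowest vehicle value and still lay above every letrozole tumour; the fitted change was 7.11-fold lower (log2 −2.83, SE 0.29, adjusted p = 1.56e-05). Pgr, Stc2 and Nrip1 were the 3 called genes of 36 tested in a list of 40 oestrogen response genes. All of them fell, as did 0.548% of all tested genes. The other 33 did not pass the test, and the median of the list was 0.16, with 22 members higher and 14 lower. At an unadjusted limma p under 0.05 there were 15 of 36, 9 higher and 6 lower, against 13.8% of all tested genes. The groups did not overlap for 6 members, against 3.68% of all tested genes. edgeR called 0 as risen and 3 as fallen, against 0.307% and 0.543% of all tested genes. DESeq2 called 2 and 3, against 1.27% and 1.87%. Areg, an epidermal growth factor family ligand and mediator of oestrogen action in the mammary gland, ranged over 10957 to 40315 in vehicle tumours, with replicates 2 and 5 far above the other 3, and over 6305 to 14944 in letrozole tumours (log2 −0.84, SE 0.37, adjusted p = 0.301). Ereg and Btc, ligands of the same family, had their 2 highest values in the same 2 vehicle tumours. Btc stood at 1746, 4630.4, 1509, 1314 and 4099 in vehicle and 1071, 1048, 716, 1072 and 1267 in letrozole tumours, groups that did not overlap (log2 −1.18, SE 0.33, adjusted p = 0.104). Ereg ranged over 5636 to 20349.6 and 2412 to 7805 (log2 −1.18, SE 0.37, adjusted p = 0.144). None of the 13 tested members of the list of ERBB receptors and ligands was called by limma. edgeR called 0 as fallen and DESeq2 3, against 1.87% of all tested genes fallen by DESeq2. At an unadjusted limma p under 0.05 there were 7 of 13, against 13.8% of all tested genes. In the absence of vehicle replicate 3, Btc passed the threshold (adjusted p = 0.0368).

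Several fallen genes encode membrane channels and carriers. Kcne2, an accessory subunit of voltage-gated potassium channels, stood at 4574, 5597, 3271, 5293 and 6041 in vehicle tumours and at 76.8, 206, 91.97, 83.3 and 61.3 in letrozole tumours. Every letrozole tumour was far below every vehicle tumour, a 50.9-fold difference (log2 −5.67, SE 0.48, adjusted p = 8.59e-07), and the anti-PD-1 arm gave a log2 change of −5.53 (adjusted p = 1.36e-06). It was the single called member of 18 tested potassium channel genes, whose median was 0.15. Slc5a3, the sodium-dependent carrier of myo-inositol, stood at 11809, 12608, 11931, 17609 and 16104 in vehicle tumours and at 3355, 3869.6, 2972, 3318 and 2626 in letrozole tumours (log2 −2.11, SE 0.25, adjusted p = 1.60e-04), without overlap. Aqp5, a water channel of secretory epithelia, ranged over 1338 to 1969 and 574 to 875 (log2 −1.29, SE 0.20, adjusted p = 0.00239). Asic1, an acid-sensing sodium channel, ranged over 454 to 1089.8 and 194 to 261 (log2 −1.68, SE 0.33, adjusted p = 0.0133) and was not called without vehicle replicate 1 (adjusted p = 0.0548). Slc41a2, a magnesium transporter, ranged over 562 to 1089.6 and 249 to 383 (log2 −1.26, SE 0.28, adjusted p = 0.034) and was not called in 10 of the 33 alternative analyses, where its adjusted p reached 0.0887. Slc5a5, the sodium iodide symporter, was named after its values were seen, with 395, 355, 359, 504 and 1023 in vehicle tumours and 73.1, 58.6, 150.4, 111 and 139.8 in letrozole tumours (log2 −2.26, SE 0.43, adjusted p = 0.0115).

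Other fallen genes encode receptors and signalling proteins. Il1rl1, the receptor of the alarmin interleukin 33, was among the most abundant, at 44019.8, 78967, 43246, 42860.4 and 56706 in vehicle tumours and 3983, 7995, 4734, 10458 and 13328 in letrozole tumours. The groups were far apart (log2 −2.82, SE 0.41, adjusted p = 8.92e-04), as in the anti-PD-1 arm (log2 −3.05, adjusted p = 3.75e-04). Epha7, a receptor tyrosine kinase for ephrins, stood at 1377, 1090.4, 935, 1513 and 1675 in vehicle and 76.8, 149, 180.1, 139.9 and 214 in letrozole tumours (log2 −3.15, SE 0.37, adjusted p = 1.39e-04), the single called gene of 18 tested Eph receptors and ephrins. F3, tissue factor, which starts the coagulation cascade, stood at 12385, 10936, 3880.1, 9347 and 15300.4 in vehicle tumours and at 855, 869, 1599.8, 1249 and 1339 in letrozole tumours. Vehicle replicate 3 was again the lowest of its group and still above all letrozole tumours (log2 −3.04, SE 0.40, adjusted p = 3.56e-04); of 20 tested genes of coagulation and fibrinolysis F3 alone was called. Rgs2, a brake on G-protein signalling, ranged over 6507 to 14103 and 1284 to 4040.2 (log2 −1.86, SE 0.36, adjusted p = 0.0132) and lost its call without vehicle replicate 1, the highest vehicle tumour (adjusted p = 0.0543). Gng12, a G-protein gamma subunit, ranged over 5173 to 14696 and 2063 to 2686 (log2 −1.71, SE 0.31, adjusted p = 0.00723). Stat5a, a mediator of prolactin signals in the mammary gland, stood at 1579.8, 1501, 1409.8, 1721 and 1389 in vehicle and 601, 804, 873, 1013 and 823 in letrozole tumours (log2 −0.90, SE 0.17, adjusted p = 0.0108). Its fold was 1.87, smaller than those of the receptors above, with groups that did not overlap.

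Further fallen genes encode enzymes and surface proteins. Hpgd, the enzyme that inactivates prostaglandins, stood at 246, 396, 234, 133 and 952 in vehicle tumours and at 27.8, 66.8, 11.5, 46.6 and 58.7 in letrozole tumours. Vehicle values spread widely, with replicate 5 the highest, and all lay above the letrozole values (log2 −3.08, SE 0.49, adjusted p = 0.00243). Cyp3a57, a cytochrome P450 of the family that oxidises steroids and drugs, ranged over 604 to 784 and 100.2 to 169.6 (log2 −2.43, SE 0.41, adjusted p = 0.00463). Podxl, the sialomucin podocalyxin, ranged over 5719 to 10543 and 2628 to 3561 (log2 −1.48, SE 0.20, adjusted p = 5.47e-04). Rev3l, the catalytic subunit of the translesion DNA polymerase zeta, ranged over 4119 to 5989 and 1763 to 2607 (log2 −1.25, SE 0.19, adjusted p = 0.0017). Faim2, an inhibitor of Fas-induced apoptosis, had log2 −2.39, Prune2 −1.997, the RNA-binding protein gene Khdrbs3 −1.94, and the phosphatase gene Cdc14b −1.34, all with groups that did not overlap and adjusted p of 0.00262 to 0.0116. Galnt15, which encodes an enzyme that starts O-linked glycans, changed by −1.30 on the log2 scale (adjusted p = 0.0202) and was not called in 3 of the 33 alternatives, with an adjusted p of up to 0.0724. Msx2, a homeobox gene of mammary development named after its values were seen, stood at 5303, 4069.9, 4593, 4726 and 3819.6 in vehicle and 1495, 2035, 2206, 2234 and 1968 in letrozole tumours (log2 −1.18, SE 0.16, adjusted p = 4.06e-04).

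**Figure D3:**
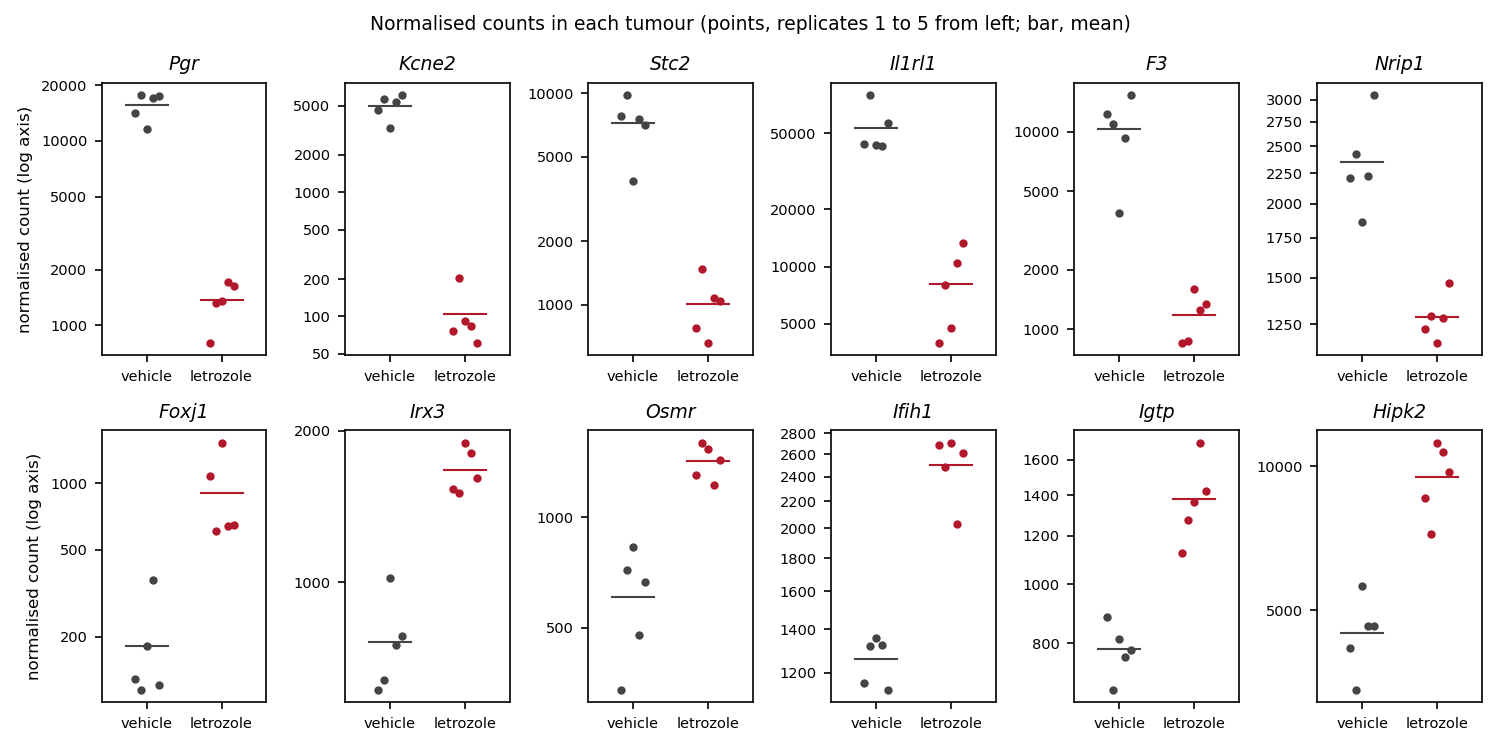
Normalised counts (log axis) of 6 fallen genes in the upper row and 6 risen genes in the lower row, with 1 point per tumour, replicates 1 to 5 from left to right in each group, and a bar at the group mean. In each of the 12 panels the 5 letrozole points lie wholly below or wholly above the 5 vehicle points.

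Several of the larger increases were in genes of transcriptional regulators. Foxj1, the master regulator of motile cilia, stood at 129, 115, 183, 364 and 121 in vehicle tumours and at 1081, 604, 1534, 643 and 649 in letrozole tumours. Vehicle replicate 4 was the highest vehicle tumour and remained below all letrozole tumours, and the fitted change was 5.10-fold (log2 2.35, SE 0.36, adjusted p = 0.0019; with anti-PD-1, log2 1.75, adjusted p = 0.0204). It was the single called gene of 15 tested in a list of 34 motile cilia genes, whose median was 0.06, and 7 of the 34, among them the cilia regulators Mcidas and Gmnc, were at 0 in all 10 tumours. Irx3, a homeobox factor of the Iroquois family, stood at 611, 639.9, 1020.4, 752 and 781 in vehicle and 1531, 1505, 1896, 1805 and 1614 in letrozole tumours. The gap between groups was wide (log2 1.15, SE 0.18, adjusted p = 0.0026) and was repeated with anti-PD-1 (log2 1.29, adjusted p = 7.14e-04). Its relative Irx5 ranged over 1706 to 2089 and 3209.8 to 4310.0 (log2 0.95, SE 0.15, adjusted p = 0.0019), and the antisense transcript Irx3os over 245 to 519 and 672 to 887 (log2 1.07, SE 0.19, adjusted p = 0.00722). Hipk2, a nuclear kinase that acts on p53 and other regulators, stood at 4163, 3407, 5608, 4637 and 4625 in vehicle tumours and at 8563, 7222, 11198, 10687 and 9731 in letrozole tumours (log2 1.08, SE 0.14, adjusted p = 2.12e-04). Zfp36l1, which promotes decay of AU-rich mRNAs, rose by 0.82 (adjusted p = 0.024), but 55.9% of its exon length overlaps another gene, and it was not called in 5 of 33 alternatives (adjusted p up to 0.0791).

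Other risen genes encode cell-surface and structural proteins. Osmr, the oncostatin M receptor, stood at 338, 719, 828, 477 and 664 in vehicle tumours and at 1304, 1594, 1535, 1219 and 1429 in letrozole tumours (log2 1.29, SE 0.23, adjusted p = 0.00787). Its groups did not overlap, and in the anti-PD-1 arm the change was 0.57 (adjusted p = 0.282); the difference between arms had an unadjusted p of 0.043. Tnfrsf21, death receptor 6, ranged over 1550.0 to 1896 and 2469 to 3784 (log2 0.85, SE 0.15, adjusted p = 0.00531). Cavin2, which shapes caveolae, ranged over 438 to 653 and 1078 to 2191 (log2 1.36, SE 0.25, adjusted p = 0.0087), and was the single called gene of 8 tested caveolar genes. Fgfr1, a fibroblast growth factor receptor, rose by 0.68 (adjusted p = 0.0384), and Mmp15, a membrane-bound metalloprotease, by 0.68 (adjusted p = 0.0265). Both lost their call in several of the 33 alternatives, Fgfr1 in 13 (adjusted p up to 0.118) and Mmp15 in 8 (up to 0.0885). Fam84a, Rcbtb2, Lysmd3, Clip4, Cnnm2, Uggt2 and Bpgm complete the 20 risen genes named by size, with log2 changes of 1.74, 1.43, 1.29, 0.91, 0.87, 0.83 and 0.80. Of these, Rcbtb2 shares 13.1% of its exon length with another gene, and Uggt2, a folding sensor of the endoplasmic reticulum, was not called in 4 of 33 alternatives (adjusted p up to 0.0617). Dmbt1 and Akr1b7, named after their values were seen, had the largest fitted increases of the called genes and low vehicle values, so that the size of their fold depends on the pseudocount. Dmbt1, a secreted scavenger receptor protein, stood at 34.8, 0, 219, 2.38 and 29.95 in vehicle tumours and at 142, 288, 1638, 1036 and 872 in letrozole tumours (log2 5.23, SE 1.12, adjusted p = 0.0265), and its call was lost in 8 of 33 alternatives, among them edgeR, the 2 groups fitted alone and 6 fits without 1 tumour (adjusted p up to 0.083). Akr1b7, an aldo-keto reductase, stood at 5.49, 0, 0.936, 1.19 and 0 and 15.4, 99.2, 217, 115 and 157 (log2 5.57, SE 0.90, adjusted p = 0.00266), and 27.2% of its exon length overlaps another gene. The Dmbt1 groups overlapped while those of Akr1b7 did not.

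Cell division genes were lower with letrozole. Of 35 genes of G2 phase and mitosis, all passed the expression filter, 11 fell, against 0.548% of all tested genes, and none rose, and all 35 had lower means in the letrozole tumours with an unadjusted p under 0.05, against 6.51% of all tested genes lower at that level. The median of the list was −0.72, beside 0.03 for all genes, and 23 of the 35 had groups that did not overlap, against 3.68% of all tested genes. Cdc20, the activator of the anaphase-promoting complex, stood at 2250.2, 2133, 1689, 1733 and 2648 in vehicle tumours and at 1187, 920.2, 1266, 576 and 916 in letrozole tumours (log2 −1.13, SE 0.19, adjusted p = 0.00468). Ccnb1, cyclin B1, the partner of the mitotic kinase, stood at 1923, 1417, 1384, 1237 and 1723 in vehicle and 1084, 684, 923, 574 and 696 in letrozole tumours (log2 −0.97, SE 0.20, adjusted p = 0.0205). Letrozole replicate 4 had the lowest value of both genes. Bub1, a kinase of the spindle checkpoint, ranged over 607 to 941 and 255 to 468 (log2 −0.998, SE 0.24, adjusted p = 0.0462), and Cdc25c, a phosphatase that triggers entry into mitosis, over 246 to 430.4 and 79.1 to 259 (log2 −1.10, SE 0.26, adjusted p = 0.0464). The other fallen members were Ccnb2, Bub1b, Hmmr, Kif4 (16.7% exon overlap with another gene), Kif20a (34.6% exon overlap), Kif2c and Mad2l1. They act in mitotic entry, the spindle and its checkpoint. Cdc20 was called in all 33 alternatives (adjusted p up to 0.0257). The calls of Ccnb1, Bub1 and Cdc25c lay closer to the threshold: Ccnb1 was lost in 4 (adjusted p up to 0.0724), Bub1 in 19 (up to 0.138) and Cdc25c in 19 (up to 0.147). edgeR called 6 of the 35, against 0.543% of all tested genes fallen, and DESeq2 30, against 1.87%. Without vehicle replicate 3 limma called 21, where 1.69% of all tested genes fell. Mki67, the proliferation marker, ranged over 5764 to 9306 and 3586 to 6752 and did not pass the test (log2 −0.73, SE 0.23, adjusted p = 0.152).

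The mean level of the 35 mitotic genes was 10.60, 10.51, 10.24, 10.40 and 10.67 in vehicle replicates 1 to 5 and 10.09, 9.69, 10.02, 9.30 and 9.65 in letrozole replicates 1 to 5, so that every letrozole tumour lay below every vehicle tumour. Vehicle replicate 3, the tumour richest in fibroblast transcripts, was the lowest of its group, so that its omission widened the mean difference by construction. The mean macrophage and muscle levels given below were higher in the letrozole group, and their part in the mitotic values was not tested. With anti-PD-1, the 35 genes were again all lower with letrozole, with a median of −0.33, and 0 were called by limma. The difference of the letrozole effect between arms had an unadjusted p under 0.05 for 3 of the 35 and was called for 0. Among 35 genes of S phase and replication, Rfc4, a subunit of the clamp loader, fell (log2 −0.55, SE 0.13, adjusted p = 0.0446; 13.4% of its exon length overlaps another gene), none rose, and the median was −0.22, with 29 members lower. Rfc4 was not called in 17 of the 33 alternatives (adjusted p up to 0.127). Of 22 tested G1 cyclins and inhibitors, limma called 0, with 6 at an unadjusted p under 0.05, against 13.8% of all tested genes. edgeR called 0 as risen and 0 as fallen, and DESeq2 0 and 1, against 1.87% of all tested genes fallen by DESeq2. Ccnd1, cyclin D1 and an oestrogen target in human breast cancer cells, ranged over 1845 to 2979 and 1918 to 3616 (log2 0.15, SE 0.17, adjusted p = 0.736), with 29.4% of its exon length shared with another gene. Myc, a growth-promoting transcription factor, ranged over 3151 to 5218 and 1772 to 3589.9 (log2 −0.66, SE 0.20, adjusted p = 0.139).

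Promoters of mitotic genes commonly carry a cell cycle homology region, read by the DREAM complex, and CCAAT boxes, read by NF-Y. The sequences below show where these letters fall in 3 fallen mitotic genes; each runs 5′ to 3′ on the gene's own strand, from 160 bases before to 20 after the RefSeq start, with TTTGAA and CCAAT (either strand) in capitals. They are taken from RefSeq promoters on GRCm38.p6, at chr4:118437324-118437503 (minus strand), chr13:100786467-100786646 (minus strand) and chr9:70421535-70421714 (minus strand).
Cdc20: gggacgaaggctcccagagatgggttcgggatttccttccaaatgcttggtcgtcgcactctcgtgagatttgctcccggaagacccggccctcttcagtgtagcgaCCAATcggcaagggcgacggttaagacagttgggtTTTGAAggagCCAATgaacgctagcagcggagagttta
Ccnb1: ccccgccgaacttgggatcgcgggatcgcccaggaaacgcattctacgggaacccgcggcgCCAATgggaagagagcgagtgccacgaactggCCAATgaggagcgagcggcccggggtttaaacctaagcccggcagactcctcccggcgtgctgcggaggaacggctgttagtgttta
Ccnb2: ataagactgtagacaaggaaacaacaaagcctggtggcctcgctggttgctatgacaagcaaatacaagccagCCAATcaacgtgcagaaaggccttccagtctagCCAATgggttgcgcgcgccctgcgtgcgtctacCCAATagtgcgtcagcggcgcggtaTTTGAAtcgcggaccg

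RefSeq promoters of 300 bases, 250 before and 50 after the start, were matched to 11119 of the tested genes (55.9%), those whose transcript used here starts within 500 bases of the RefSeq start. The letters TTTGAA occurred on either strand in 19 of 28 matched mitotic promoters (67.9%), in 3 of 27 S phase promoters (11.1%) and in 11.8% of all 11119. CCAAT occurred in 23 of 28 mitotic promoters (82.1%), in 17 of 27 S phase promoters (63.0%) and in 37.9% of all. In the Ccnb1 promoter CCAAT was found 2 times and TTTGAA not at all, while the Cdc20 promoter held both. For the fallen genes as a whole, TTTGAA occurred in 23 of 81 promoters (28.4%). The full oestrogen response element, GGTCA and TGACC separated by 3 bases, was found in 0 of 81 fallen and 3 of all 11119 promoters, and the single site AGGTCA in 12 of 81 (14.8%) against 12.1% of all. These are matches of letters in a short window, not binding sites.

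Genes of interferon response and antigen presentation were higher on average with letrozole. Of 32 tested interferon-gamma response genes, 3 rose, Gbp2, Igtp and Irgm2, against 0.402% of all tested genes, and none fell, with a median of 0.52 and 24 members higher. Of 30 tested type I interferon genes, Ifih1 rose and 27 were higher (median 0.49). Ifih1, which encodes the RNA sensor MDA5, stood at 1157, 1318, 1357, 1325 and 1128 in vehicle tumours and at 2688, 2488, 2709, 2029 and 2608 in letrozole tumours. Letrozole replicate 4 was the lowest of its group and well above all vehicle tumours (log2 0.99, SE 0.12, adjusted p = 1.82e-04), and the gene was called with anti-PD-1 too (log2 0.79, adjusted p = 0.00138). Igtp and Irgm2, interferon-inducible GTPases of neighbouring genes, stood apart in a similar way. Irgm2 had 581, 567, 851, 645 and 488 in vehicle and 1046, 1112, 1279.9, 1342 and 1283 in letrozole tumours (log2 0.97, SE 0.17, adjusted p = 0.00532). Igtp ranged over 669 to 883 and 1123 to 1709 (log2 0.81, SE 0.19, adjusted p = 0.0479) and was not called in 18 of 33 alternatives (adjusted p up to 0.139). Gbp2, a guanylate-binding protein, stood at 744, 734, 1315, 930.2 and 732 and 1209, 1386, 1797, 1905 and 1835; vehicle replicate 3 lay within the letrozole range (log2 0.88, SE 0.18, adjusted p = 0.0187), and the call was lost in 6 alternatives (adjusted p up to 0.0677). AW112010, a transcript induced by interferon-gamma in immune cells, ranged over 579.8 to 927 and 1208 to 1706 (log2 0.94, SE 0.16, adjusted p = 0.00364).

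Of 22 genes of MHC class I presentation, 2 rose, against 0.402% of all tested genes, and 20 were higher, with a median of 0.20. H2-D1, a classical class I heavy chain, stood at 36756, 42857, 44367, 41113 and 43841 in vehicle tumours and at 53698, 56041, 74753, 66862 and 61174 in letrozole tumours, without overlap (log2 0.57, SE 0.14, adjusted p = 0.0462), and was not called in 19 of 33 alternatives (adjusted p up to 0.139). Tapbp, tapasin, which loads peptides onto class I, stood at 5545, 4744, 9056, 7104 and 5943 and 9304, 8095, 13781, 14276 and 12859 (log2 0.85, SE 0.18, adjusted p = 0.0252); vehicle replicate 3 overlapped the letrozole range, 23.5% of its exon length is shared with another gene, and 7 alternatives ended the call (adjusted p up to 0.0842). H2-D1 is 1 of several near-identical class I genes, between which the counting may have split reads. Of 13 class II genes none was called by limma although all 13 were higher (median 1.14). Of these, 5 had an unadjusted limma p under 0.05, against 7.34% of all tested genes higher at that level. edgeR called 0 and DESeq2 0. Cd274, the PD-1 ligand PD-L1, had 54.9, 29.5, 73.02, 65.4 and 61.5 in vehicle and 119.9, 145, 98.7, 132 and 148 in letrozole tumours, low values that did not overlap and missed the threshold (log2 1.21, SE 0.35, adjusted p = 0.112; 14.1% exon overlap). Without antibody Cd274 was called in 3 of 33 alternatives, among them DESeq2 (adjusted p = 0.0208), and not by edgeR (adjusted p = 0.123). In the anti-PD-1 arm Cd274 was called as risen by limma (log2 1.51, adjusted p = 0.0405). C1s1, a protease of the complement cascade, rose, with 843, 879, 2575, 966 and 1338 in vehicle and 3391, 2119, 3471, 2828 and 4523 in letrozole tumours (log2 1.40, SE 0.25, adjusted p = 0.00722), with vehicle replicate 3 inside the letrozole range and 19.6% of its exon length shared with another gene. It lost its call when the 2 groups were fitted alone (adjusted p = 0.0508), and it was the single called gene of 19 tested complement genes, whose median was 0.72.

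Macrophage markers had higher means with letrozole, and none passed the test by limma. The mean level of 22 macrophage markers was 7.39, 7.38, 9.11, 6.36 and 7.79 in vehicle replicates 1 to 5 and 8.50, 8.49, 8.15, 8.48 and 9.13 in letrozole replicates 1 to 5. Their summed normalised counts ranged over 6389 to 31439 in vehicle and 16879 to 26368 in letrozole tumours, no marker was at 0 throughout, and the highest vehicle sum was that of replicate 3 (next highest 13440.2). Of the 22, 21 were higher, with a median of 0.92, and 9 had an unadjusted p under 0.05, against 7.34% of all tested genes higher at that level. limma called 0 of the 22, edgeR 0 and DESeq2 1, against 1.27% of all tested genes risen by DESeq2. Without vehicle replicate 3 limma called 11, where 2.37% of all tested genes rose. T cell markers were low, with a summed level of 599.5 to 2072 and 812 to 2612, and 18 of 19 were higher (median 1.05); none was called by limma and none had an unadjusted p under 0.05, edgeR called 0 and DESeq2 0. Without vehicle replicate 3 the called genes were 6 of 32 for interferon-gamma, 5 of 30 for type I interferon, 5 of 22 for class I and 3 of 13 for class II, all risen, against 2.37% of all tested genes risen in that fit. Vehicle replicate 3 had the highest vehicle mean level of each of these lists and of the macrophage markers. Its omission therefore raised the mean differences by construction, and these counts are no separate evidence of a rise. The part of the immune cell content in the interferon and antigen presentation values was not tested.

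Interferon acts through the interferon-stimulated response element (ISRE), read by IRF and STAT complexes, and the gamma-activated site (GAS), read by STAT dimers. The promoter of Igtp is shown because it holds the letters of both, and that of Gbp2 because it holds those of the ISRE alone. The same 180-base window is printed, on GRCm38.p6 from RefSeq at chr11:58199396-58199575 and chr3:142620503-142620682 (both plus strand), with capitals for 2 copies of GAAA separated by 2 bases, on either strand (ISRE), and for TTCNNNGAA (GAS).
Igtp: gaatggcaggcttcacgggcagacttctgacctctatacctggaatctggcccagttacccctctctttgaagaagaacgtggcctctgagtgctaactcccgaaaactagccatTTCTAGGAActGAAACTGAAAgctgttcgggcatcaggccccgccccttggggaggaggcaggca
Gbp2: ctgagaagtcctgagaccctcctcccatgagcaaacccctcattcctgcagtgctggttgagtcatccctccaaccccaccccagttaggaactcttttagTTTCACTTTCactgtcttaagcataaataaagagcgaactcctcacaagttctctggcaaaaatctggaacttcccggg

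The ISRE letters occurred in 8 of 22 matched interferon-gamma promoters (36.4%), in 12 of 23 type I interferon promoters (52.2%) and in 3.01% of all 11119. TTCNNNGAA occurred in 8 of 22 (36.4%), 7 of 23 (30.4%) and 6.79% of all. The Igtp window held both elements close together. Its ISRE letters lay on the gene's own strand, while TTCNNNGAA reads alike on both strands. In the Gbp2 window the single ISRE match lay on the opposite strand and TTCNNNGAA was absent. Of the 54 risen genes with a matched promoter, 6 (11.1%) held the ISRE letters.

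**Figure D4:**
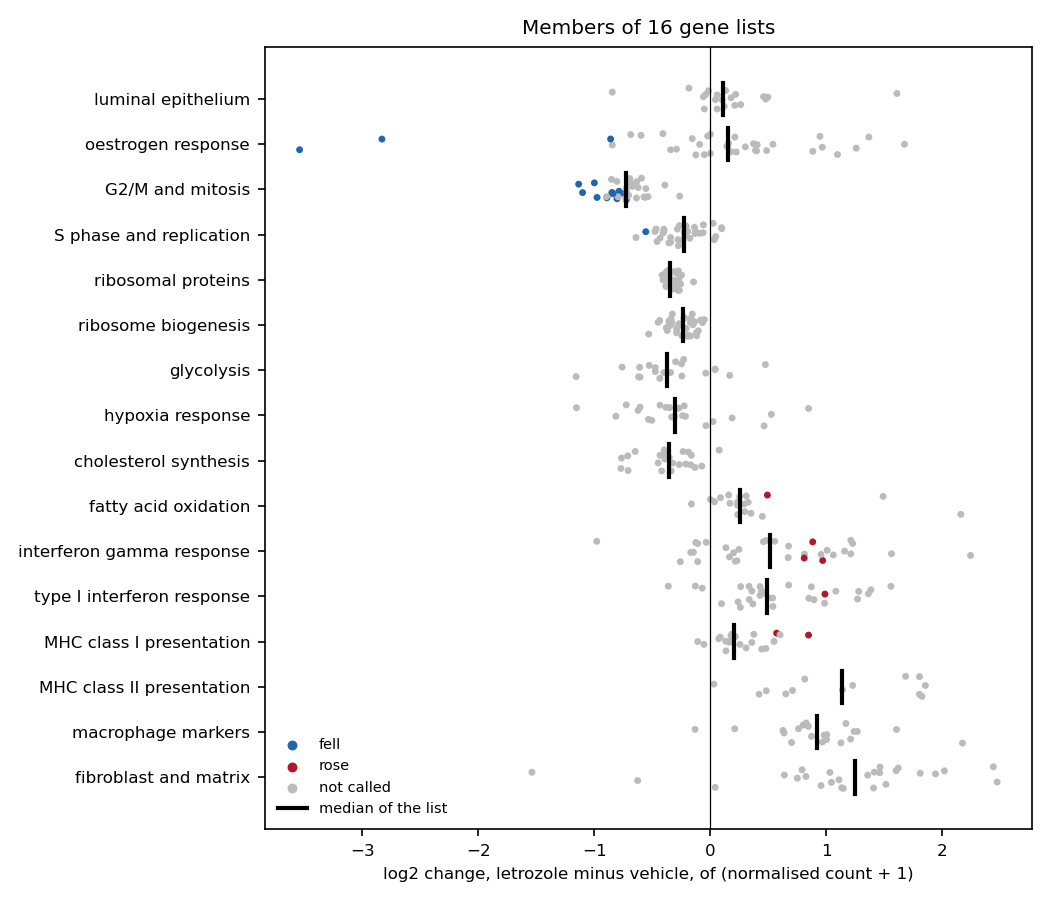
Each point is a tested member of the list named on the y axis, placed by its log2 change between letrozole and vehicle (x axis); blue and red mark called genes that fell and rose, grey genes were not called, and the black bar is the median of the list. All points of the mitotic and both ribosomal lists lie to the left of 0, and most interferon, MHC and macrophage points lie to the right.

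Most genes of ribosomes, translation, cholesterol synthesis, glycolysis and hypoxia had lower means with letrozole, and limma called none of them. All 30 cytosolic ribosomal protein genes tested had lower means with letrozole, with a median of −0.35, and 21 had an unadjusted p under 0.05, against 6.51% of all tested genes lower at that level. limma called 0 of them, edgeR 0 and DESeq2 9, against 1.87% of all tested genes fallen by DESeq2. Without vehicle replicate 3, 10 fell by limma, against 1.69% of all tested genes. All 34 ribosome biogenesis genes were lower too (median −0.24), as were 22 of 24 translation factors (median −0.20) and 22 of 23 cholesterol synthesis genes (median −0.35). Among 20 glycolytic genes 16 were lower (median −0.37), with 10 at an unadjusted p under 0.05, and 13 fell without vehicle replicate 3. Hypoxia response genes had a median of −0.31, and 7 of 23 fell without that library. With all libraries limma called 0 genes in the lists of ribosome biogenesis, translation factors, cholesterol synthesis, glycolysis and hypoxia. Of their 34, 24, 23, 20 and 23 members, 11, 8, 13, 10 and 7 were lower at an unadjusted p under 0.05. The share of all tested genes lower at that level was 6.51%. edgeR called none of them as fallen. DESeq2 called 1, 2, 4, 7 and 3, against 1.87% of all tested genes fallen by DESeq2. Vehicle replicate 3 had the lowest mean level of its group for ribosomal protein (13.30 against 13.55 to 13.79), glycolytic (11.04 against 11.82 to 12.06) and hypoxia genes (9.85 against 10.28 to 10.65). Without it the medians of these lists were −0.41, −0.55 and −0.50. As it was the lowest vehicle tumour, its omission lowered the mean changes of these lists by construction. Of 19 fatty acid oxidation genes 18 were higher (median 0.25). Hadha, a subunit of the mitochondrial trifunctional protein of this pathway, rose, with 1714, 2047, 2120.3, 1875 and 1572 in vehicle tumours and 2445, 2809, 2920.0, 2425 and 2499 in letrozole tumours (log2 0.49, SE 0.09, adjusted p = 0.0114), the single call of that list.

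Transcripts of stromal and other cell types varied widely between tumours of the same group. Fibroblast and matrix genes had mean levels of 7.74, 8.99, 11.23, 6.07 and 9.26 in vehicle replicates 1 to 5 and 9.94, 9.60, 8.49, 10.10 and 10.91 in letrozole replicates 1 to 5. Their median change was 1.25 with all tumours and 1.98 without vehicle replicate 3, the highest of its group. limma called 0 of 26, edgeR 0 as risen and 0 as fallen and DESeq2 0 and 0. At an unadjusted limma p under 0.05 there were 3 of 26, a share no higher than the 13.8% of all tested genes. Skeletal muscle genes were at 3.25, 2.81, 3.12, 3.22 and 3.36 in vehicle tumours and at 7.50, 3.27, 3.27, 7.09 and 6.80 in letrozole tumours, that is, high in letrozole replicates 1, 4 and 5 and at the vehicle level in replicates 2 and 3. All 18 tested were higher on average (median 2.11). At an unadjusted limma p under 0.05 there were 10, against 7.34% of all tested genes higher at that level. limma called 0, edgeR 0 and DESeq2 3, against 1.27% of all tested genes risen by DESeq2. Basal and myoepithelial genes were at 7.50, 8.13, 8.70, 7.05 and 7.88 and 8.38, 9.68, 7.89, 9.71 and 10.87, and keratinocyte and squamous genes at 6.78, 7.51, 6.26, 7.15 and 7.18 and 6.48, 6.57, 7.13, 8.79 and 9.57, both highest in letrozole replicates 4 and 5. Adipocyte genes, which mark the fat pad in which the tumours grew, were at 5.64, 3.17, 7.89, 2.94 and 5.15 and 6.61, 8.37, 6.18, 4.91 and 5.37. None of these 3 lists had a gene called by limma. Of 19, 15 and 18 tested members, 8, 0 and 2 had an unadjusted limma p under 0.05, against 13.8% of all tested genes. Only the basal share was above that of all genes. edgeR called 1, 1 and 0 as risen and DESeq2 5, 4 and 0, against 0.307% and 1.27% of all tested genes. The fallen genes Pgr, Kcne2, Stc2 and F3 were also called by limma without vehicle replicate 3, with adjusted p of 4.95e-08, 2.36e-06, 4.26e-06 and 7.01e-05. That tumour had the lowest vehicle value of each of these genes. Its omission therefore widened their mean differences by construction and is no separate evidence of a fall.

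**Figure D5:**
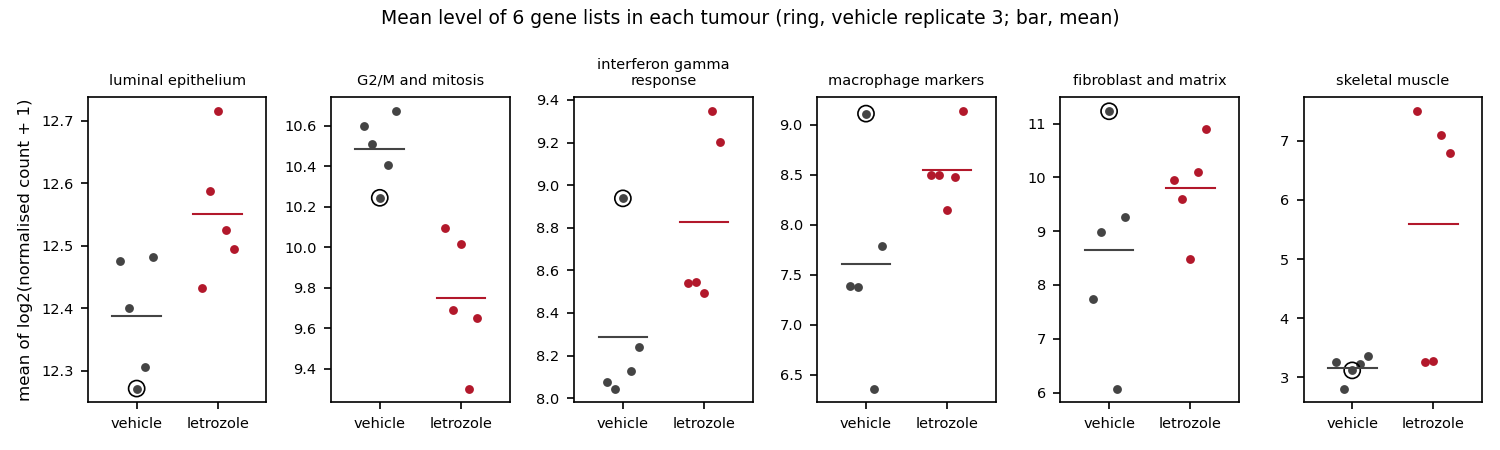
Mean log2(normalised count + 1) of 6 gene lists (y axes, each with its own range) in the 5 vehicle and 5 letrozole tumours, replicates 1 to 5 from left to right, with bars at the group means and a ring around vehicle replicate 3. The mitotic list separates the groups, the ringed tumour is highest of the vehicle group for interferon, macrophage and fibroblast genes, and muscle genes are high in letrozole replicates 1, 4 and 5.

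Several called genes lie next to each other in the genome. By the gene order of GENCODE vM21 (GRCm38), 53 of the 189 called genes lay in 23 runs of 2 or more called genes of the same direction with at most 4 tested genes between them, and 4 runs held at least 3. On chromosome 9, Trpc6, a calcium-permeable channel gene, Gm32014, Pgr and Gm16485 fell together, by −1.97, −5.93, −3.54 and −3.69 on the log2 scale, while the tested genes on either side, Cep126 and Arhgap42, were at −0.12 and 0.12. Trpc6 stood at 394, 1608, 876, 760.1 and 786 in vehicle and 133, 491, 182, 199.9 and 149 in letrozole tumours, with groups that overlapped. On chromosome 16, Mrps6, Gm49711, Slc5a3 and Kcne2 fell, by −1.20, −1.27, −2.11 and −5.67, with D430001F17Rik (−0.37) and Smim11 (−0.12) outside; 36.1% of the exon length of Mrps6 and 35.9% of that of Gm49711 overlaps another gene, so their reads may not be their own. Gm16310 (−2.75) lay inside the chromosome 16 run and was not called. On chromosome 15 a run held Faim2, Aqp5, Racgap1 and Asic1 (between Bcdin3d at 0.39 and Smarcd1 at −0.12). The last, on chromosome 8, held the risen Irx3, Irx3os and Irx5. Crnde (1.08) and Gm21817 (−0.59) lay inside it and were not called, and Gm36380 (−3.34) and Gm45336 (−0.29) lay outside, also not called. The members other than those described above were named after their values were seen, and how many runs gene order alone would give was not tested.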

How the data were processed

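RNA from 20 tumours in 4 groups of 5 was sequenced from total RNA. The deposited table gives a signal for each of 127442 Ensembl transcripts and library, which the authors scaled between libraries; STAR 2.7.10a, DESeq2 and the builds GRCm39 and mm39 are named per the submitters' processing notes, and the sources used here do not give the read counter, annotation release or strand setting. Each column was a whole-number multiple of its smallest value (100% of values within 0.001), so reads and size factors (0.472 to 1.46) were recovered from the deposited signal. GENCODE vM21 named 118889 transcripts (93.3%); the others, with 1.79% to 2.76% of the reads, were not used. Each gene was represented by the transcript with most reads, which leaves out the reads of its other transcripts (median of 3 per gene). Where genes overlap, reads cannot be assigned by strand.

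Genes reaching 10 in 5 or more libraries were tested with limma 3.58.1 (trend, R 4.3.3) on log2(value + 1) with 4 group means and 16 residual degrees of freedom. Folds on this scale understate changes of low genes. Among 33 alternatives were count tests of the recovered reads, with edgeR 4.0.16 and DESeq2 1.42.0. The code was tested on simulated data. Named genes are the 20 largest changes per direction among called genes above the median level whose groups do not overlap, predicted genes aside; up to 4 called members per list and direction, or the 2 of smallest p; and a panel of 12 genes. The members and the 65 lists were chosen with earlier results of these data known. 1 gene of the panel is not reported here.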

Additional observations from a re-analysis of the deposited data

Results flagged for a closer look

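In 4 of the 168 groups of 5 tumours examined for the values printed above, 1 tumour lay apart from the other 4 by more than Dixon's critical value of 0.71, and chance gives about 1 in 20. Cyp3a57 was at 603.6 normalised counts in vehicle replicate 2, while the other vehicle tumours held 743 to 784. Rgs2 was at 14103 in vehicle replicate 1, while the others held 6507 to 7814. Epcam was at 30664 in letrozole replicate 3, while the other letrozole tumours held 25597 to 26188. The mean level of the 20 glycolytic genes was 11.04 on the log2 scale in vehicle replicate 3, while the other vehicle tumours held 11.82 to 12.06.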

How the results depend on the processing

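The 189 calls (80 risen, 109 fallen) changed with several choices. With no expression filter 70 genes fell, and centring on library medians left 42 risen. Array weights, which lower the weight of libraries that scatter more, gave 733 calls (364 risen, 369 fallen), and DESeq2 gave 624 (253 and 371). Without vehicle replicate 3 and anti-PD-1 replicate 1 together there were 1140 calls (651 and 489). Leaving out 1 library at a time gave 85 to 807 calls, 29 to 471 risen and 51 to 336 fallen. The 90 genes called in both arms became 42 when each arm's 2 groups were fitted alone, 177 with array weights, 216 with DESeq2, 156 without both libraries together, and 53 to 148 with 1 library left out. The interaction gave 0 calls with each library left out and 4 with DESeq2. For the 73 genes printed with values, direction and call were unchanged in 2191 of the comparisons with an alternative, the call was lost in 187 and gained in 29, and none changed sign. The cause was not tested. The sources do not state whether replicate numbers pair the tumours. Same-numbered vehicle and letrozole tumours had correlations of deviations between −0.34 and 0.10, and 1 of 5 correlated best with its own number. So few tumours cannot decide whether the numbers mark pairs. With the replicate number as a block 221 genes were called. Depth was 12495788 to 31393828 reads over all 20 libraries, the lowest of them outside the groups compared here, and genes under the filter were not tested.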

Other observations

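Of the 65 gene lists, 18 held at least 1 called gene and 47 held none, and the G2/M list with 11 had the most. Lists of developmental signalling genes had no calls by limma, although most members had higher means, as had 53.4% of all tested genes. Of 27 WNT signalling genes 22 were higher (median 0.34), of 19 Notch genes 14 (median 0.34) and of 29 TGF-beta and BMP genes 25 (median 0.32). At an unadjusted p under 0.05 there were 3, 5 and 7 of them, against 13.8% of all tested genes at that level, so that the WNT share was no higher than that of all genes; edgeR called 0, 0 and 0 as risen and DESeq2 0, 0 and 1. Unfolded protein response genes were lower in 20 of 24 (median −0.15), with 3 at an unadjusted p under 0.05 and 0 called by limma, 0 by edgeR and 0 by DESeq2. Oxidative phosphorylation genes, in which 26 of 32 were lower, had a median of −0.09 and 5 at that p. They had 0 calls by limma, 0 by edgeR and 1 by DESeq2, against 1.87% of all tested genes fallen by DESeq2.

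Ache, the acetylcholinesterase gene, was named after its values were seen because its change differed between arms before adjustment. It stood at 19.2, 28.4, 44.00, 131 and 34.7 in vehicle tumours and at 162, 295, 279, 227 and 320.2 in letrozole tumours (log2 2.59, SE 0.61, adjusted p = 0.0459), and its change with anti-PD-1 was 0.38. The call was lost in 16 of 33 alternatives (adjusted p up to 0.144), among them edgeR, no expression filter, median centring and the omission of any 1 letrozole tumour. The difference between arms had an unadjusted p of 0.0187 (adjusted p = 1).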
